A study of Rattus norvegicus with 2 samples.

Results

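The genes described here are 10 components of transforming growth factor beta (TGF-beta) signaling in rat hypothalamus: the ligands Tgfb1, Tgfb2 and Tgfb3, the receptors Tgfbr1, Tgfbr2 and Tgfbr3, the signal transducers Smad2, Smad3 and Smad7, and Tgfbi, a matrix protein whose gene is named for its induction by TGF-beta. They were taken by gene name from 22353 mRNA genes in the deposited tables, and each of the 10 names was found. The study compared hypothalamic RNA of untreated female Sprague Dawley rats before puberty, on postnatal day 25, and at puberty, on postnatal day 35. The methods use vaginal opening as the sign of puberty, and the supplement took rats in first estrus, staged by vaginal smear, as pubertal. Age, puberty and cycle stage therefore cannot be told apart here. According to the methods 3 rats were taken for each stage, whereas the tables have a single column for each, here called the prepubertal and the pubertal library. No difference between stages could therefore be set against the spread between animals. How the 3 rats were combined is not given in the sources used here. Fewer cells of a type and less RNA per cell cannot be told apart in such bulk tissue.

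TGF-beta is secreted in a latent form, held in the matrix by latent TGF-beta binding proteins, and is freed by integrins and proteases. The free ligand binds the type II receptor (Tgfbr2), which phosphorylates the type I receptor (Tgfbr1). The latter phosphorylates Smad2 and Smad3, which enter the nucleus with Smad4. The type III receptor (Tgfbr3, betaglycan) presents the ligand, and Smad7 shuts the pathway down. In the hypothalamus, TGF-beta from astrocytes is known as one of the glial signals that act on GnRH neurons. The study took Tgfbi as a potential target of a lncRNA, and the comparison of stages asks which of these genes differ in level around puberty.

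Expression was given by the authors as FPKM, the number of fragments normalised to transcript length and library size, and the values of a gene's transcripts were summed. The low FPKM of genes with a single transcript stepped in multiples of 1 unit per library, set by transcript length, and were multiples of 0.5 fragments for 94.5% of 1277 prepubertal and 94.7% of 1269 pubertal values, to within 0.02 of that step. These steps put the depth at 2.08e+07 fragments in the prepubertal and 1.62e+07 fragments in the pubertal library. They also gave the number of fragments behind each FPKM, from 7 to about 1494 for these genes. Intervals are 95% intervals from these numbers and cover counting error only, neither differences between rats nor amplification. The log2 ratios have (FPKM + 1) of the pubertal library over (FPKM + 1) of the prepubertal library, so they are drawn towards 0 for low genes, while fold ratios are of the FPKM itself. A log2 ratio of at least 0.32 in either direction, which is 0.8-fold or the inverse of it in FPKM + 1, is called past the threshold.

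Of the 10 genes, Tgfbi was higher in the pubertal library and Smad3 and Tgfb1 were lower, each past the threshold. The other 7 genes lay within it, and the 95% counting interval of the ratio included 1 for each of these 7. In all, 4 genes had a positive log2 ratio, beside 39.0% of all 22353 mRNA genes and 49.0% of the 13612 with a mean FPKM of at least 1 over both libraries. The other 6 had a negative log2 ratio, beside 40.5% and 51.0%. With the libraries scaled to equal Actb, the split was 8 positive to 2 negative, Smad3 and Tgfb1 being the latter, but 90.4% of the 13612 genes were then positive.

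Past the threshold, 1 of the 10 genes was higher, beside 6.00% of all mRNA genes and 7.66% of those with a mean FPKM of at least 1, and 2 were lower, beside 8.05% and 10.9%. At 1.5-fold in FPKM + 1, 0 of the 10 were higher and 0 lower, beside 1.42% and 1.83% of all mRNA genes. Their median log2 ratio stood at -0.07, and that of the genes with a mean FPKM of at least 1 at -0.01. Counts this small among 10 genes do not stand apart from those shares. The counting interval lay above 1 for 1 gene, beside 12.4% of all mRNA genes and 19.7% of those with a mean FPKM of at least 1. It lay below 1 for 2 genes, beside 15.2% and 23.8%. The mean FPKM was at least 1 for 9 of the 10 genes, Tgfb1 being the exception.

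**Figure D1:**
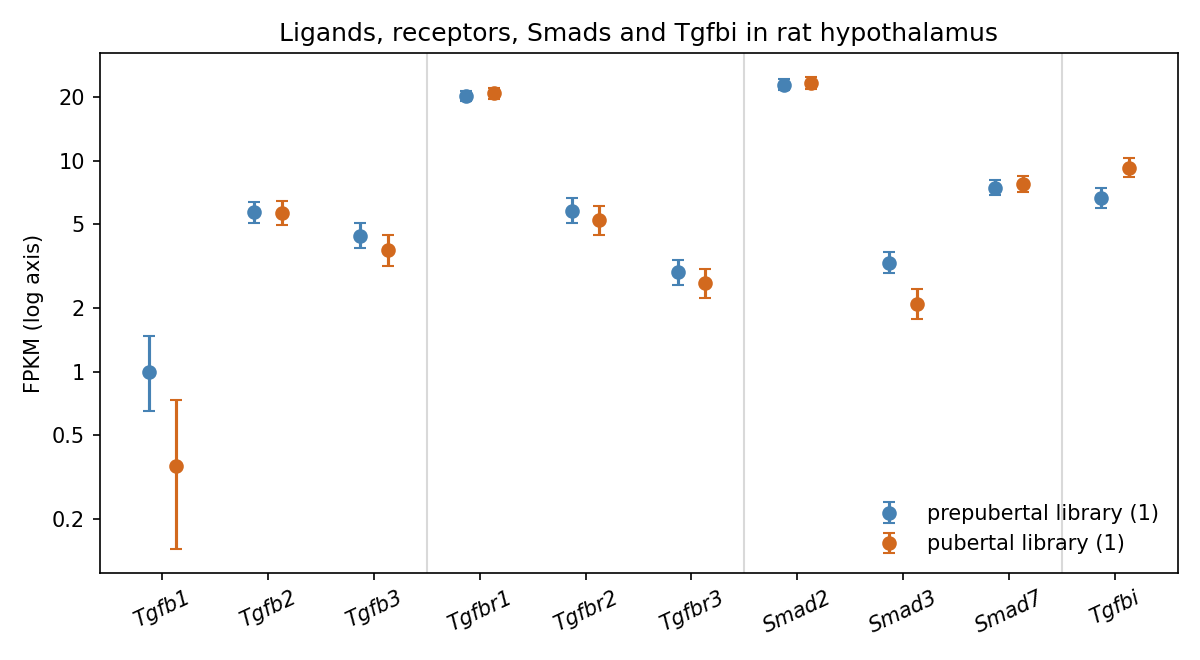
FPKM (log axis) of the 10 genes in the prepubertal (blue) and the pubertal (orange) library, 1 library per stage, with 95% counting intervals as bars. The bars of the 2 libraries are apart for Tgfbi, 6.68 and 9.29 FPKM, and for Smad3, 3.29 and 2.11 FPKM, whereas they meet for the others, including the widest pair, Tgfb1.

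Smad2 was the most abundant of the 10 genes in both libraries and Tgfb1 the least. In the prepubertal library, the order by FPKM was Smad2 (22.9), Tgfbr1 (20.3), Smad7 (7.46), Tgfbi (6.68), Tgfbr2 (5.81), Tgfb2 (5.70), Tgfb3 (4.42), Smad3 (3.29), Tgfbr3 (2.96) and Tgfb1 (1.0). Neighbours in this order whose intervals overlapped were Smad7 and Tgfbi, Tgfbi and Tgfbr2, Tgfbr2 and Tgfb2, and Smad3 and Tgfbr3. In the pubertal library, Tgfbi stood above Smad7, Tgfb2 above Tgfbr2 and Tgfbr3 above Smad3, and the intervals of these pairs overlapped there, as did those of Smad2 and Tgfbr1 and those of Tgfbr2 and Tgfb3. The plot of FPKM by gene shows this order, with a wide gap below Tgfbr1 and another above Tgfb1.

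Tgfbi (ENSRNOG00000012216) encodes a secreted protein of the extracellular matrix with fasciclin domains that binds collagens and integrins. Its single transcript, ENSRNOT00000016390 (2694 nt), had 6.68 FPKM in the prepubertal library, from 338 fragments, and 9.29 FPKM in the pubertal library, from 368 fragments. The pubertal library thus held more Tgfbi fragments although it was the shallower of the pair. The FPKM ratio was 1.39, with a counting interval of 1.20 to 1.62, and the log2 ratio was 0.42. Of the 13612 mRNA genes with a mean FPKM of at least 1, 3.98% had a log2 ratio at or above this value. The gene itself was of moderate level, as 34.3% of these 13612 genes had a lower mean FPKM. Longer mRNAs tended to lie lower in the pubertal library, though not at the short end. The median log2 ratio was 0.03 for transcripts of 168 to 539 nt, the first of 10 length classes. It was 0.11 for those of 539 to 850 nt and -0.12 for those of 3975 nt and longer, the last class. Relative to genes of its own length class, the log2 ratio of Tgfbi was 0.46.

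The promoter stretches of the 3 genes past the threshold are shown to place the letters that Smad proteins are known to bind. The stretches are the 250 bases before the RefSeq start in build GRCr8, 5′ to 3′ on the gene's strand, whereas the authors' labels name build Rnor_5.0. The letters searched on both strands were CAGACA (the CAGA box), GTCTAGAC (the Smad palindrome) and GGCGCC, a GC-rich form, and capitals mark matches, of which none overlapped another. For Tgfbi the stretch is chr17:7990114-7990363, minus strand.
Tgfbi: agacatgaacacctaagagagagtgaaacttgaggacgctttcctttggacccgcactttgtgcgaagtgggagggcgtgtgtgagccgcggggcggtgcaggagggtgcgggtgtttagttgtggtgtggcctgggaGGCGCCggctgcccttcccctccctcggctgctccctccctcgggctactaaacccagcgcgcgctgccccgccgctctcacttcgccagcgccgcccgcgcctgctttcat
It holds GGCGCC once, and 8.69% of 33469 RefSeq promoter stretches of the same length hold it at least once. CAGACA and GTCTAGAC, with a match in 17.2% and 0.173% of the stretches, were not among its letters. Its GC content was 65.6%, against a median of 51.2% over all stretches. Of the 10 genes, 5 held GGCGCC in such a stretch (Tgfbi, Tgfbr1, Tgfbr3, Smad2 and Smad7), and 0 held either of the others. The GC contents of those other 4 genes' stretches were 71.2% to 82.8%, above those of the 5 genes without the match, 48.8% to 68.4%. Tgfbi, at 65.6%, lay within the range of the genes without the match.

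The lncRNA that holds the same place as Tgfbi in the study's parallel lists of lncRNAs and potential targets, XLOC_181783, has 1 transcript of 234 nt in the deposited sequences, TCONS_00206738. It is printed because its length limits what its FPKM can show, and no letters are marked in it.
XLOC_181783: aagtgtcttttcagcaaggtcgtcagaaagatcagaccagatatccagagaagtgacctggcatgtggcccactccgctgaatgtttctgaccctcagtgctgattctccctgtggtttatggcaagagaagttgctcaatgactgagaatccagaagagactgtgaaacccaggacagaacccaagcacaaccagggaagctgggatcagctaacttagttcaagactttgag
It was listed at 4.67 FPKM in the prepubertal and at 0 in the pubertal library. Of the 28 lncRNAs of 234 nt with a prepubertal FPKM above 0, 17 were listed at exactly 4.67 FPKM and 0 were listed lower. The prepubertal value of XLOC_181783 was therefore the lowest that occurred at its length, 1 step above 0, and no difference between the stages was detectable for it at this depth. Tgfbi, in contrast, rested on 338 and 368 fragments.

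Among the genes that share the fasciclin domain with Tgfbi, 1 of 4 was higher past the threshold, Tgfbi itself, and 0 were lower past it. The shares among genes with a mean FPKM of at least 1 were 7.66% and 10.9%. Postn, the matrix protein periostin, had 1.17 and 1.01 FPKM (log2 ratio -0.11), and Stab1, a scavenger receptor, 1.32 and 1.21 FPKM (-0.07). The intervals of both ratios included 1. The 3 mRNA genes closest to Tgfbi by distance of log2(FPKM + 1), which rests on 2 values a gene, were Rps4x (6.64 and 9.43 FPKM), Lgals9 (6.77 and 9.40 FPKM) and Setbp1 (6.56 and 9.40 FPKM).

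**Figure D2:**
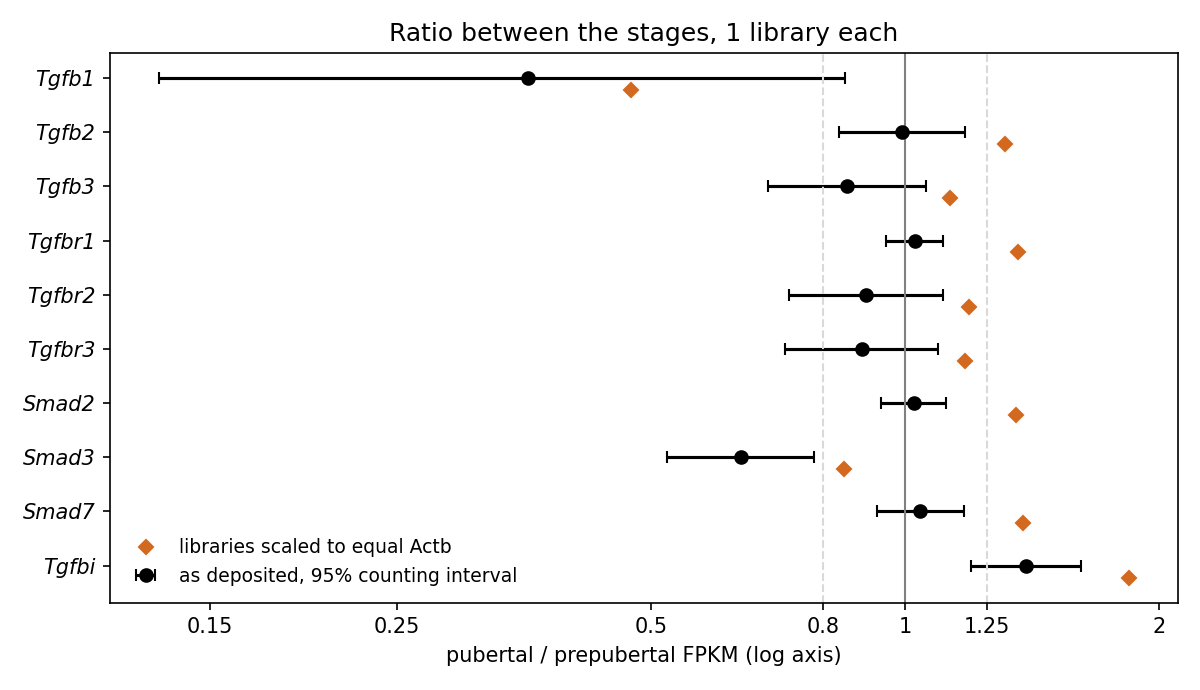
Ratio of pubertal to prepubertal FPKM (log axis) of the 10 genes as deposited (black, bars are 95% counting intervals) and with the libraries scaled to equal Actb (orange diamonds). Dashed lines stand at 0.8 and its inverse. The black bars of Tgfbi, Smad3 and Tgfb1 leave out 1. With equal Actb every ratio is 1.32 times higher, and Smad3 and Tgfb1 alone stay below 1.

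The ligands made up a small pool in which Tgfb2 led. Tgfb2 (ENSRNOG00000002418) had 5.70 FPKM from 309 fragments in the prepubertal and 5.66 FPKM from 240 fragments in the pubertal library. Its ratio was 0.993 with an interval of 0.835 to 1.18, so larger changes in either direction lay outside the counting error. Tgfb3 (ENSRNOG00000009867) had 4.42 FPKM from 217 fragments and 3.78 FPKM from 145 fragments, a ratio of 0.854 (0.687 to 1.06), and with equal Actb the ratios of Tgfb2 and Tgfb3 lay above 1, at 1.31 and 1.13.

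Tgfb1 (ENSRNOG00000020652), the isoform best known from immune cells and platelets, was the lowest of the ligands. It had 1.0 FPKM from 25 fragments in the prepubertal and 0.358 FPKM from 7 fragments in the pubertal library. The ratio was 0.357, and the few fragments left it an interval of 0.130 to 0.849. The log2 ratio was -0.56 with a pseudocount of 1 and -1.49 without one. The summed FPKM of the ligands was 11.1 and 9.80, of which Tgfb1 made up 9.02% and 3.66%, Tgfb2 51.2% and 57.8%, and Tgfb3 39.7% and 38.5%. Tgfb2 thus exceeded Tgfb1 by 5.68-fold in the prepubertal and 15.8-fold in the pubertal library. The stretch before the start of Tgfb1, chr1:90324062-90324311 on the plus strand, has 60.0% GC and no match to the letters searched.
Tgfb1: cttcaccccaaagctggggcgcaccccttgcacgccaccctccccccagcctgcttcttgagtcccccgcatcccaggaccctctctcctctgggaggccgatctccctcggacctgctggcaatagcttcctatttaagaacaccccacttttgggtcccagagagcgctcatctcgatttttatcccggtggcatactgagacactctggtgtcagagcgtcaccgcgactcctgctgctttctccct

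The receptors differed little between the libraries. Tgfbr1, the type I receptor kinase also known as Alk5, was the most abundant of them, with 20.3 and 20.9 FPKM and a ratio of 1.03 (0.950 to 1.11). It was the only one of the 10 genes with 2 transcripts, listed under 2 gene identifiers. ENSRNOT00000009452 (5637 nt, ENSRNOG00000007036) had 11.9 and 11.7 FPKM, a ratio of 0.978 (0.900 to 1.06). ENSRNOT00000073192 (1173 nt, ENSRNOG00000050760) had 8.38 and 9.19 FPKM, a ratio of 1.10 (0.867 to 1.39). The fragment numbers of these transcripts did not come out whole, at 1334.7 and 159.4 in the prepubertal library, so fragments were split between them and the value of each is uncertain. The sum of their FPKM also depends on this split.

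Tgfbr2 (ENSRNOG00000013265), the type II receptor that binds the ligand first, had 5.81 FPKM from 220 fragments and 5.23 FPKM from 155 fragments, a ratio of 0.900 (0.728 to 1.11). Tgfbr3 (ENSRNOG00000002093) had 2.96 FPKM from 226 fragments and 2.63 FPKM from 157 fragments, a ratio of 0.889 (0.720 to 1.09). Both ratios lay below 1 with intervals that included it, and both lay above 1, at 1.19 and 1.18, with equal Actb. Tgfbr1 exceeded Tgfbr2 by 3.50-fold in the prepubertal and 3.99-fold in the pubertal library.

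Of the Smads, Smad3 lay past the threshold and Smad2 and Smad7 within it, and the counting interval of the Smad3 ratio did not overlap with those of the others. Smad2 (ENSRNOG00000018140) had 22.9 FPKM from 1120 fragments and 23.5 FPKM from 897 fragments, a ratio of 1.02 (0.937 to 1.12). Smad3 (ENSRNOG00000008620), which binds DNA directly and shares its partner Smad4 with Smad2, was lower in the pubertal library. It had 3.29 FPKM from 300 fragments in the prepubertal and 2.11 FPKM from 150 fragments in the pubertal library. The ratio was 0.640 with an interval of 0.522 to 0.781, and the log2 ratio was -0.47. Of the 13612 mRNA genes with a mean FPKM of at least 1, 4.57% had a log2 ratio at or below this value.

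At 4644 nt, the Smad3 transcript lies in the class of the longest transcripts, whose median was itself below 0, and relative to that class its log2 ratio was -0.35, still past the threshold. With equal Actb its log2 ratio was -0.18, within it. Smad2 exceeded Smad3 by 6.96-fold in the prepubertal and 11.1-fold in the pubertal library, a comparison within each library that no scaling of the libraries changes. Smad7 (ENSRNOG00000018359), the inhibitory Smad and itself a target of the pathway, had 7.46 FPKM from 626 fragments and 7.78 FPKM from 510 fragments, a ratio of 1.04 (0.926 to 1.17). The stretch before the start of Smad3, chr8:73132325-73132574 on the minus strand, has 68.4% GC and no match to the letters searched.
Smad3: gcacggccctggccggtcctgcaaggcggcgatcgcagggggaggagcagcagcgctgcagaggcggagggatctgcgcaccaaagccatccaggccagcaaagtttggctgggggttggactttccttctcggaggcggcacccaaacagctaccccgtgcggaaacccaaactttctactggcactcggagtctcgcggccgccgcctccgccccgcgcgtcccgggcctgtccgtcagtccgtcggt

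**Figure D3:**
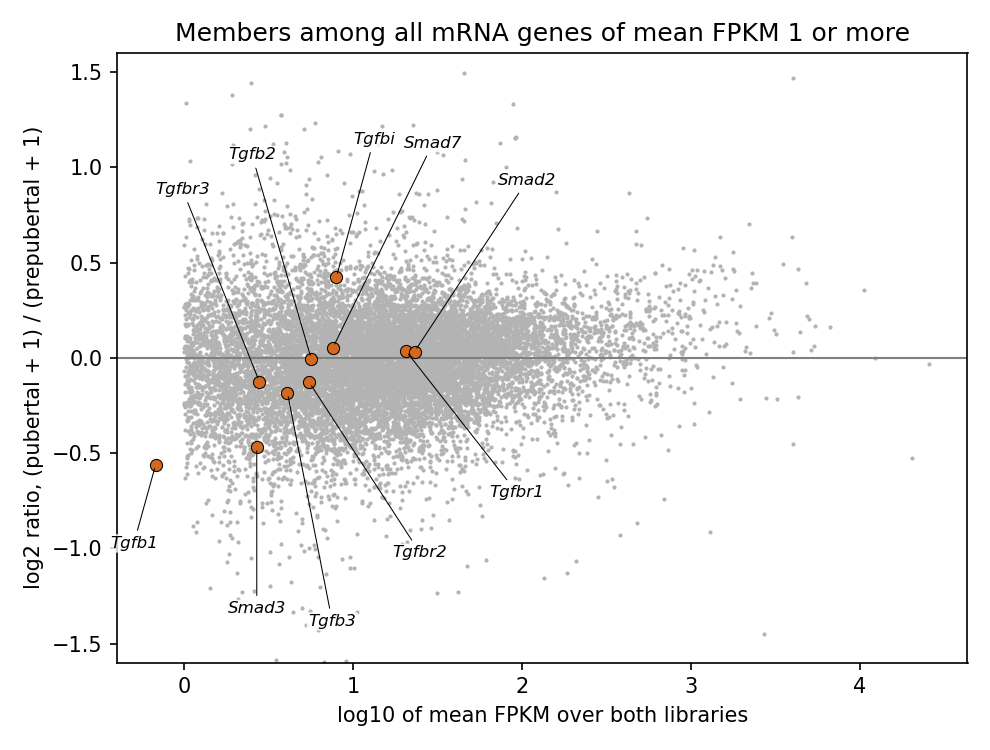
Log2 ratio against log10 of the mean FPKM over both libraries for the 10 genes (orange) and the 13612 mRNA genes with a mean FPKM of at least 1 (grey), of which 43 lie outside the axis at 1.6 in either direction. Tgfbi lies towards the upper edge of the grey cloud at its level and Smad3 towards the lower edge, while Tgfb1 stands to the left of it with a mean FPKM of 0.681.

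Around these 10 genes, further genes of the pathway were taken by role from lists. These lists were chosen with earlier results of these data known, so their counts are no independent evidence of a direction. Of the 98 other genes measured, 27 had a positive and 71 a negative log2 ratio, with a median of -0.14. Past the threshold, 2 were higher (Bambi and Junb) and 28 lower in the pubertal library, that is 2.04% and 28.6%. The shares were 6.00% and 8.05% over all mRNA genes, and 7.66% and 10.9% over those with a mean FPKM of at least 1. With equal Actb, 24 of the 98 genes were higher and 7 lower past the threshold, and the split was 68 positive to 30 negative. The shares past the threshold were then 56.2% and 1.71% of the genes with a mean FPKM of at least 1. That scaling raised the median log2 ratio of genes with a mean FPKM of at least 1 by 0.38 and made 90.4% of them higher, so relative to it the 98 genes again lay low, with a median of 0.14.

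Of the 15 genes that hold latent TGF-beta or free it, 5 were lower past the threshold and 0 higher. The shares among genes with a mean FPKM of at least 1 were 10.9% and 7.66%. Positive log2 ratios numbered 4 as deposited, beside 49.0% of those genes, and 7 with equal Actb, beside 90.4%. The median log2 ratio was -0.23. Mmp14, a membrane-bound matrix metalloproteinase, had 6.87 and 2.98 FPKM, from 311 and 106 fragments, a ratio of 0.433 (0.344 to 0.542). Thbs1, the matrix protein thrombospondin that activates latent TGF-beta, had 3.35 and 1.78 FPKM, a ratio of 0.532 (0.383 to 0.729). Furin, the protease that cleaves the ligand precursors, had 6.01 and 3.92 FPKM, a ratio of 0.653 (0.559 to 0.760). The most abundant gene of the list, Plat (tissue plasminogen activator), had 61.7 and 62.4 FPKM. Chosen after its values were seen, Itgb8, an integrin chain that frees latent TGF-beta in the brain, had 23.0 and 28.5 FPKM, and was the only gene of the list with an interval above 1 (1.14 to 1.35).

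Of the 10 co-receptors and receptor partners, 3 had a positive log2 ratio as deposited and 7 with equal Actb. Among genes with a mean FPKM of at least 1, 49.0% and 90.4% were positive. Past the threshold, 1 of the list was higher and 3 lower, beside 7.66% and 10.9% of those genes. The higher one was Bambi, a receptor-like inhibitor of the pathway, with 3.31 and 5.25 FPKM from 78 and 97 fragments, a ratio of 1.59 (1.16 to 2.16). Bgn, the proteoglycan biglycan, had 3.16 and 1.98 FPKM (0.626, 0.463 to 0.838). Fkbp1a, which binds the type I receptor and was the most abundant of the list, had 241 and 177 FPKM (0.732, 0.702 to 0.763).

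Of the 19 other Smads and regulators of Smads, 4 were lower past the threshold and 0 higher. The shares among genes with a mean FPKM of at least 1 were 10.9% and 7.66%. Positive log2 ratios numbered 5 as deposited, beside 49.0% of those genes, and 17 with equal Actb, beside 90.4%. The median log2 ratio was -0.10. Smad6, the inhibitory Smad of the BMP branch, had 1.72 and 0.987 FPKM from 40 and 18 fragments, and its interval of 0.310 to 1.02 included 1. Smurf1, a ubiquitin ligase that acts on Smads and receptors, had 12.2 and 8.97 FPKM (0.738, 0.641 to 0.848), and Foxh1, a DNA-binding partner of Smad2, had 11.0 and 8.48 FPKM (0.772, 0.645 to 0.922). Ppm1a, a phosphatase of Smads and the most abundant of the list, had 113.7 and 100.5 FPKM. In the branch that does not use Smads, 2 of 10 genes were lower past the threshold and 0 higher, beside the same 10.9% and 7.66%. Of these 10, 3 had a positive log2 ratio as deposited and 8 with equal Actb, beside the same 49.0% and 90.4%. Tab1, the activator of the kinase Map3k7 (Tak1), had 15.0 and 9.37 FPKM (0.623, 0.552 to 0.701), and Map3k7 itself 6.43 and 5.08 FPKM (0.789, 0.690 to 0.903). Traf6, the ubiquitin ligase upstream of Map3k7, had 4.44 and 3.32 FPKM (0.747, 0.598 to 0.930), and Rhoa, the most abundant gene, 159 and 153 FPKM.

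**Figure D4:**
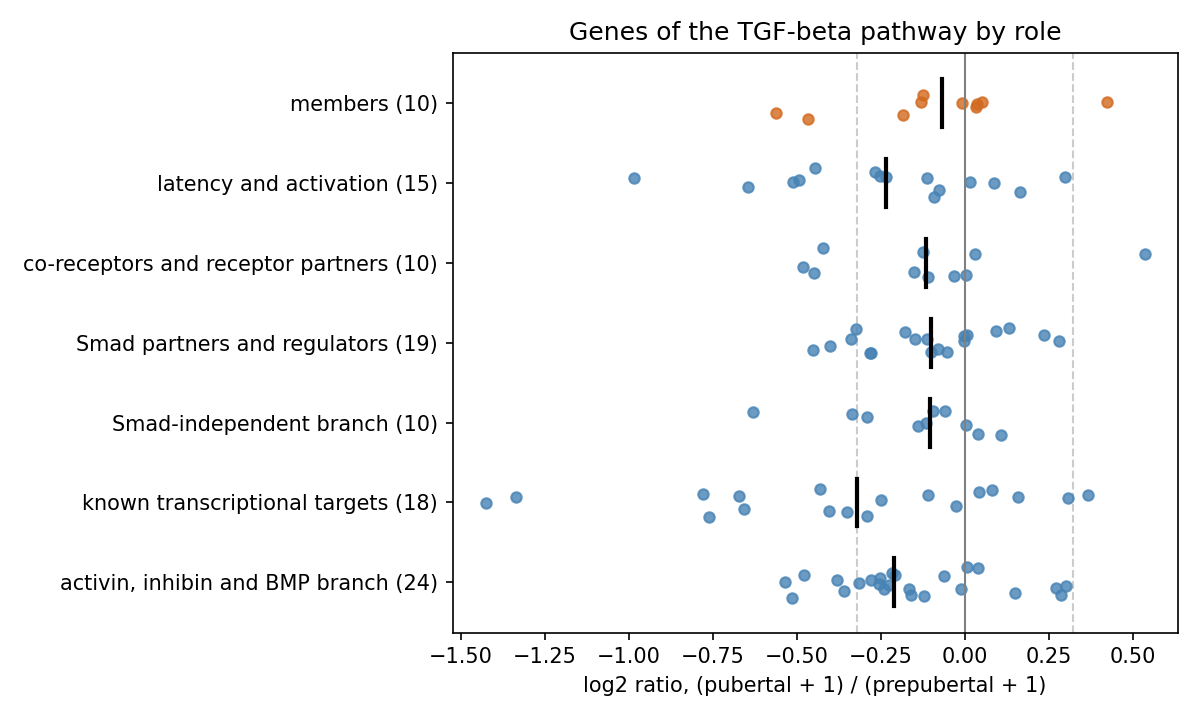
Log2 ratio of each gene (points) by role, with the number of genes in brackets and the median as a black bar. Dashed lines mark the threshold at 0.32. Points lie mostly left of 0 in each of the pathway lists drawn, which leave out the fasciclin family, with medians from -0.10 to -0.32, whereas with equal Actb 68 of the 98 genes measured lie right of 0, beside 90.4% of genes with a mean FPKM of at least 1.

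Of 18 genes known to respond to TGF-beta in many cell types, 9 were lower past the threshold and 1 higher. The shares among genes with a mean FPKM of at least 1 were 10.9% and 7.66%. Positive log2 ratios numbered 5 as deposited, beside 49.0% of those genes, and 10 with equal Actb, beside 90.4%. The list sets no direction of response for its genes, Id1, Id2 and Id3 among them. The median log2 ratio was -0.32. By log2 ratio of FPKM + 1, the lowest genes were Col1a1, a collagen chain, with 9.57 and 2.93 FPKM (0.306, 0.267 to 0.351), Eln, elastin, with 6.77 and 2.08 FPKM (0.307, 0.247 to 0.378), and Col1a2, with 15.8 and 8.76 FPKM (0.556, 0.504 to 0.612). The most abundant was Id3, an inhibitor of basic helix-loop-helix factors, with 52.0 and 64.5 FPKM (1.24, 1.12 to 1.38). The 1 gene higher past the threshold, Junb, an AP-1 factor named after its values were seen, had 9.77 and 12.9 FPKM (1.32, 1.05 to 1.65). Of this list, Col1a1, Col1a2, Col3a1 and Fn1 are among the genes that the study placed in an ECM-receptor interaction term from these libraries, as is Thbs1 above, so they are no independent evidence of a direction. The log2 ratio of Tgfbi, which is not counted in this list, had the opposite sign to those of Col1a1, Eln and Col1a2.

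In the activin, inhibin and bone morphogenetic protein branch, 5 of 24 genes were lower past the threshold and 0 higher. The shares among genes with a mean FPKM of at least 1 were 10.9% and 7.66%. Positive log2 ratios numbered 6 as deposited, beside 49.0% of those genes, and 17 with equal Actb, beside 90.4%. The median log2 ratio was -0.21. Bmp4 had 10.6 and 6.98 FPKM (0.661, 0.536 to 0.813), Gdf11 16.7 and 11.4 FPKM (0.683, 0.566 to 0.821) and Bmp7 1.42 and 0.739 FPKM (0.519, 0.316 to 0.831), all of them ligands. Bmpr2, a type II receptor for BMPs and the most abundant of the list, had 35.9 and 30.0 FPKM (0.836, 0.787 to 0.888).

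Marker genes of cell types that the dissected tissue could hold were set beside these results, by sign and by threshold. All 8 hypothalamic markers were above 0 in both libraries, 6 with a positive log2 ratio (4 past the threshold) and 2, Avp and Nkx2-1, with a negative one, and their summed FPKM was 2616 and 3991, mostly from Pmch (1675 and 2723 FPKM) and Oxt (411.3 and 685.5 FPKM). Log2 ratios were positive for 6 of 6 microglial markers, as for Tgfbi, with 1 past the threshold and sums of 204.9 and 249.9 FPKM, and for 3 of 3 red blood cell markers, all past it, with sums of 5244 and 10737 FPKM. They were positive for 4 of 5 pituitary markers, 2 past the threshold, with sums of 31.6 and 44.0 FPKM and Prl at 0 in the prepubertal library.

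As for Smad3, Tgfb1 and Col1a1, log2 ratios were negative for 3 of 3 thalamic markers, all past the threshold (sums of 133 and 101 FPKM). They were negative for 4 of 4 neuronal markers, 1 past it (1440 and 1342 FPKM). They were also negative for 4 of 4 tanycyte markers (72.4 and 67.8 FPKM) and 4 of 5 endothelial markers (107.6 and 99.4 FPKM), with 0 past the threshold in either list. Of 5 fibroblast and meningeal markers (sums of 56.7 and 42.7 FPKM), 4 were negative, 2 of them past the threshold, and Dpt was higher past it. Dpt had 0.182 and 1.32 FPKM over 3 transcripts, from 7 and about 10 fragments, so its value is uncertain. The other lists were mixed, with positive log2 ratios for 1 of 3 perivascular macrophage markers (8.36 and 6.68 FPKM), 2 of 4 pericyte and smooth muscle markers (86.4 and 89.8 FPKM), 2 of 4 oligodendrocyte markers (10281 and 11152 FPKM), 3 of 4 astrocyte markers (748 and 749 FPKM) and 3 of 4 choroid plexus markers (33.7 and 28.8 FPKM). Past the threshold in these mixed lists, Lyve1 (perivascular macrophages, log2 ratio -0.38) and Mag (oligodendrocytes, -0.33) were lower and Aldh1l1 (astrocytes, 0.34) was higher. Beside these counts, 49.0% of genes with a mean FPKM of at least 1 were positive and 51.0% negative. With equal Actb the pubertal sums of neuronal, tanycyte and endothelial markers lay above the prepubertal ones, at 1777, 89.7 and 132 FPKM, and those of thalamic and of fibroblast and meningeal markers lay close to them, at 134 and 56.6 FPKM. The part of these markers in the results was not tested.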

How the data were processed

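Hypothalamic RNA was depleted of rRNA, made into strand-specific libraries and sequenced as paired ends. Alignment was by TopHat and assembly by Cufflinks 2.1.1 and Scripture, and the authors estimated the deposited FPKM of each transcript with Cuffdiff 2.1.1. The labels name build Rnor_5.0, and the methods link a later annotation. FPKM is already scaled for library size and length. The deposited comparison table gave gene names, lengths (in nt, a value of another kind than expression per the file headers) and a second copy of the FPKM, while its ratios, p-values and q-values, the authors' own comparison, were not used. The lncRNA sequences were deposited as letters. FPKM of 13 mRNA transcripts differed between the tables, 0 of them of these genes, and the mRNA table was used.

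Transcripts were summed by gene name. With 1 library per stage no test was made. The pairing of the lncRNA with Tgfbi was read from the order of the study's lists. Depth and fragments came from the steps of low FPKM of single-transcript genes of 1000 to 6000 nt, fitted for depth and for the length lost to fragment size (257 and 251 nt). FPKM intervals are exact Poisson and ratio intervals exact binomial (Clopper-Pearson), both at 95%. Depth fit, ratios and intervals were tested on simulated data. The members and lists were chosen with earlier results of these data known. Named genes were all members, in each list the 3 largest ratios at a mean FPKM of at least 1 and the most abundant gene, the lncRNA listed with Tgfbi and the 3 genes nearest to Tgfbi. Alternatives were a pseudocount of 0.1 or none (the latter added after the data were seen), a filter at a mean FPKM of 1, the highest transcript, libraries scaled to equal medians (a factor of 1.03 on the pubertal library) or equal Actb (1.32), centring in 10 length classes, the FPKM of the comparison table and a threshold of 1.5-fold. Acta2 was not found among the gene names. Scripts ran under Python 3.11.15 with scipy 1.17.1, numpy 2.4.6 and pandas 2.3.3, and figures were drawn with matplotlib 3.10.9.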

Additional observations from a re-analysis of the deposited data

How the results depend on the processing

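Setting both libraries to 1 level of Actb, which was lower in the pubertal library as deposited (an FPKM ratio of 0.755), moved most results. The log2 ratio of Tgfbi became 0.79, 8 members were higher, their median log2 ratio was 0.28, 5 were higher past the threshold and 1 (Tgfb1) lower, beside 56.2% and 1.71% of genes with a mean FPKM of at least 1, whose median shifted by 0.38, and the median of the 98 pathway genes was 0.14. The filter at a mean FPKM of 1 left 1 member lower past the threshold, since it removed Tgfb1, and at 1.5-fold in FPKM + 1, 0 members were higher and 0 lower, whereas by FPKM itself Smad3 and Tgfb1 were 1.56-fold and 2.80-fold lower. Of 70 values of single members under the alternatives, 61 moved by less than the counting error. Among them were those of Tgfbi, 0.42 to 0.48, under each setting other than equal Actb. Some could not move, as the comparison table held the same FPKM for all 10 members and 9 have a single transcript. The wide interval of Tgfb1 also let its shift from -0.56 to -1.49 without a pseudocount count among the 61. That number is therefore no measure of robustness. The number of the 98 pathway genes past the threshold was 8 higher and 38 lower with a pseudocount of 0.1 (9.67% and 13.8% of genes with a mean FPKM of at least 1), 10 and 38 with none (9.93% and 14.0%), and 5 and 24 with equal medians (9.87% and 8.58%), against 2 and 28 (7.66% and 10.9%). The sign of Tgfb2 turned under equal medians, length-centring and equal Actb, that of Tgfb3, Tgfbr2 and Tgfbr3 under equal Actb, and that of Tgfbr1 with its highest transcript alone. No paired analysis was possible because each stage has 1 library. Among the 10 members, depth limits Tgfb1 (25 and 7 fragments) most, and it also limits the lncRNA listed with Tgfbi. The spread between rats is unknown for all values.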

Other observations

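The fragment numbers of the 9 members with a single transcript came out whole to within 0.0685 of a fragment in each of 18 values, up to 1120 fragments. A single unit per library thus described both low and moderate FPKM, as it would for 1 set of fragments per stage with 1 scale, and 1 fragment of Tgfbi was worth 0.0198 FPKM before puberty and 0.0253 FPKM at puberty. The study also measured its candidate lncRNAs and their target genes in rat by qRT-PCR. The rat primer pair that its methods list for Tgfbi has the same letters as the pair listed for Igfbp5. The product sizes listed differ, and whether the list or the assay is at fault is not known here. The FPKM given here is therefore the measure of Tgfbi that was used.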
